A study of Arabidopsis thaliana with 10 samples.

Results

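The growth-regulating factor genes GRF1 to GRF9 and GIF1, the gene of their coactivator, are 10 of the 33559 genes in a table of transcript levels from dark-grown Arabidopsis thaliana seedlings. They were taken by gene identifier (AGI code): GRF1 is AT2G22840, GRF2 AT4G37740, GRF3 AT2G36400, GRF4 AT3G52910, GRF5 AT3G13960, GRF6 AT2G06200, GRF7 AT5G53660, GRF8 AT4G24150, GRF9 AT2G45480 and GIF1 AT5G28640. GRF is also the symbol of the 14-3-3 proteins called general regulatory factors, which are different genes and were not included. The family was chosen by measured values: the GRF7 level of hls1 was among the lowest relative to Col-0 in an earlier account of these data, and the other genes were added as its family. The contrast of hls1 with Col-0 is therefore a description here, and nothing is read from the number of genes that passed the threshold in it. The Col-0 values that entered this choice are also used in the other comparisons with Col-0. The place of GRF7 in those, and the counts that include it, are thus not independent of the choice and are descriptions too.

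Seedlings of 5 genotypes in the Col-0 background were kept for 3 days in darkness at 22 °C and collected without roots, with no further treatment and with 2 biological replicates per genotype, 10 samples in all. The genotypes were the wild type Col-0; hls1, a mutant of HOOKLESS1, which is needed for the apical hook; pifq, a mutant of the bHLH genes PIF1, PIF3, PIF4 and PIF5, whose proteins hold back greening and are removed by light; ein3 eil1, a mutant of EIN3 and EIL1, through which ethylene acts on transcription. In the fifth genotype, pifq ein3 eil1, called the combined mutant here, both sets of mutations were joined. The labels name the mutants only in this way, without alleles. The series title places the work in the regulation of the apical hook by EIN3, EIL1 and the PIFs. Each gene has a single deposited RPKM value (a read number divided by gene length and by the mapped reads of the library) in each genotype, taken as the authors' mean of the 2 samples, so the spread between samples is not visible, the depth is unknown and no difference could be tested. Here a gene counts as higher or lower past the threshold if its log2(RPKM + 1) values were at least 1 apart, which is a 2-fold ratio of RPKM + 1. This scale understates the difference of low genes. Of all genes, 18581 reached 1 RPKM in at least 1 genotype and were compared, and all 10 genes of the family reached it in Col-0 itself, the lowest at 2.14.

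The identity of the values was looked at first. The description cells of the table mostly do not match the identifiers of their lines: of the 10 genes, 2 (GRF8 and GRF9) carried their own name, 3 an empty cell and 5 the name of another gene. The mutated genes bear on whether values and identifiers belong together. EIN3 stood at 84.0 RPKM in Col-0 and 17.9 in ein3 eil1, EIL1 at 44.4 and 10.8, and PIF3 at 35.1 in Col-0 and 5.61 in pifq. These 3 were past the threshold, as was PIF5 in pifq, at 1.60 against 4.34, with a log2 difference of -1.04 that was -0.98 after scaling. PIF3 was also past it in ein3 eil1, where it is not mutated, at 12.7 RPKM and a log2 difference of -1.40. PIF1 stood at 18.2 RPKM in pifq against 19.0 in Col-0 and PIF4 at 8.69 against 4.36, both under the threshold. HLS1 stood at 11.2 RPKM in Col-0 and 6.28 in hls1, under the threshold, and lower in ein3 eil1, at 2.84, and the combined mutant, at 3.04, than in hls1 itself, so no mutated gene marks the hls1 column clearly. Over all genes compared, the log2 difference from Col-0 had a median of 0.04 in hls1, -0.05 for pifq, -0.29 for ein3 eil1 and -0.17 for the combined mutant, and values after median-of-ratios scaling, which takes these shifts out, are given where they change a call or a sign. All comparisons with Col-0 share its column. In tissue made of many cell types, fewer cells of a type and less RNA per cell cannot be told apart.

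Growth-regulating factors are plant transcription factors that carry a QLQ domain, which binds GIF coactivators, and a WRC domain, which binds DNA. GIF1, also called ANGUSTIFOLIA3, binds no DNA itself and brings SWI/SNF chromatin remodellers to the genes that the GRFs select. Together they promote cell division in young leaves and cotyledons, and the microRNA miR396, which accumulates as leaves mature, cleaves most GRF transcripts. GRF7 is also known as a repressor of DREB2A, a regulator of genes that respond to dehydration and salt.

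The miR396 site is shown first because it divides the family. Both mature miR396 forms of Arabidopsis were read from the genome (RefSeq annotation of TAIR10.1), miR396a-5p at chr2:4142443-4142463 on the minus strand and miR396b-5p at chr5:13611808-13611828 on the plus strand. Capitals mark the seed, bases 2 to 8, which both share.
ath-miR396a-5p: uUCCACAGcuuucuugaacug
ath-miR396b-5p: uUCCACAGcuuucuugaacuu
A search of the coding sequences for the complement of miR396, with 1 point for each mismatch or bulged base and 0.5 for each G:U pair, found a site of 22 bases with 1 bulged base in 7 of the 9 GRFs. Its best penalty lay between 2 and 3 for either form of the microRNA. Capitals mark the site and the 4 bases on each side are in lower case.
GRF7: gtccTCGTTCAAGAAAGCATGTGGAAcctc
GRF8: gtccTCGTTCAAGAAAGCATGTGGAAtcat
GRF1: gccaTCGTTCAAGAAAGCCTGTGGAAggcc
GRF2: gtcaTCGTTCAAGAAAGCCTGTGGAAgtcc
GRF3: gcaaCCGTTCAAGAAAGCCTGTGGAAactc
GRF4: gaaaCCGTTCAAGAAAGCCTGTGGAAaccg
GRF9: gtaaACGTTCAAGAAAGCTTGTGGAAtctt
These sites lie, in TAIR10.1, at chr5:21795145-21795166 on the plus strand in exon 2 of 3 of GRF7, at chr4:12538649-12538670 (plus) in exon 5 of 6 of GRF8, at chr2:9729944-9729965 (plus) in exon 3 of 4 of GRF1, at chr4:17726404-17726425 (minus) in exon 3 of 4 of GRF2, at chr2:15271745-15271766 (minus) in exon 3 of 4 of GRF3, at chr3:19617293-19617314 (minus) in exon 3 of 4 of GRF4 and at chr2:18746292-18746313 (plus) in exon 2 of 4 of GRF9. GRF7 and GRF8 hold the same 22 bases, as do GRF1 and GRF2, and GRF3 and GRF4. In GRF5 and GRF6, which are known not to be targets of miR396, the best window for miR396a-5p had a penalty of 6.5 and 5.5, well above the others.

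In Col-0 the 9 GRF transcripts together came to 184.2 RPKM, and GRF7 alone made up 58.6% of that sum. The sum stood at 22.7 RPKM in hls1, 80.4 for pifq, 83.4 for ein3 eil1 and 40.7 for the combined mutant, lower than Col-0 in every mutant, also after median-of-ratios scaling. The share of GRF7 was 3.63% in hls1, 16.1% for pifq, 42.8% for ein3 eil1 and 6.81% for the combined mutant. Without GRF7 the other GRFs summed to 76.3 RPKM in Col-0 and 21.9 in hls1, beside 67.5 in pifq, 47.7 in ein3 eil1 and 37.9 in the combined mutant. Much of the distance between Col-0 and pifq thus lay in GRF7, whereas in hls1 the remaining genes were also low.

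**Figure D1:**
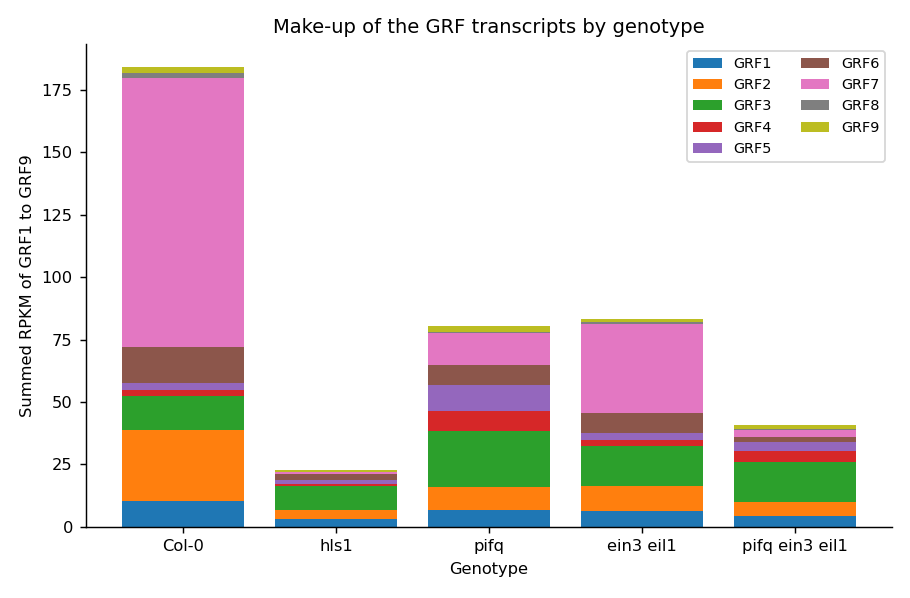
Stacked bars of the summed RPKM of GRF1 to GRF9 in each genotype, 1 deposited value per gene and genotype. GRF7 makes up 58.6% of the bar of Col-0 (184.2 RPKM) and 3.63% of the bar of hls1 (22.7 RPKM).

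The order of the GRF levels also differed between genotypes. From high to low it ran GRF7, GRF2, GRF6, GRF3, GRF1, GRF5, GRF4, GRF9 and GRF8 in Col-0, and in ein3 eil1 it was the same except that GRF3 stood ahead of GRF2 and GRF6. In hls1 it ran GRF3, GRF2, GRF1, GRF6, GRF5, GRF7, GRF9, GRF4 and GRF8, in pifq GRF3, GRF7, GRF5, GRF2, GRF6, GRF4, GRF1, GRF9 and GRF8, and in pifq ein3 eil1 GRF3, GRF2, GRF1, GRF4, GRF5, GRF7, GRF6, GRF9 and GRF8. GRF8 was the lowest in each of the 5. Which neighbours in these orders differ by more than the spread between samples is not known.

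GRF7 stood at 108 RPKM in Col-0 and 0.824 in hls1, beside 12.9 in pifq, 35.7 in ein3 eil1 and 2.77 in the combined mutant. Col-0 was thus far above the mutants, which were themselves spread from ein3 eil1 down to hls1. The RPKM of Col-0 was 130.9 times that of hls1, 8.36 times that of pifq, 3.02 times that of ein3 eil1 and 38.9 times that of pifq ein3 eil1. On the log2(RPKM + 1) scale the differences from Col-0 were -5.90, -2.97, -1.57 and -4.85 in the same order, and GRF7 was in place 3, 72, 96 and 14 from the lowest of the 18581 genes. The difference in ein3 eil1 was -1.24 after median-of-ratios scaling and stayed past the threshold. In pifq ein3 eil1, GRF7 was also below each parent, by -1.88 against pifq and -3.28 against ein3 eil1. The interaction, the difference of the combined mutant from Col-0 less those of pifq and of ein3 eil1, was -0.31 for GRF7, or -0.54 after scaling. With 0.1 in place of 1 added to RPKM it was -0.58. The median interaction of all genes was 0.18 in the main setting, 0.002 after scaling and 0.21 with 0.1 added. The level of GRF7 in the combined mutant was thus below that of adding both log2 differences, by less than the threshold.

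GRF7 lies at chr5:21794177-21796092 on the plus strand (TAIR10.1). The listed gene before it, AT5G53650, did not share its profile. AT5G53650 stood at 51.5 RPKM in Col-0 and 34.8 in hls1, beside 30.7 in pifq, 27.5 in ein3 eil1 and 44.3 in the combined mutant. It was under the threshold in each mutant. The gene after GRF7, AT5G53670, was too low for its profile to be compared. Its highest value, 0.301, was that of Col-0, followed by ein3 eil1 with 0.067, and the remaining genotypes were listed at 0. The description of GRF7 stands in the line of that last gene. An annotated noncoding gene, AT5G08015, overlaps GRF7 and is not analysed here. The libraries were made with a directional kit, but whether the counting used strand is not given in the sources used here, so reads of overlapping genes may be mixed.

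GRF8, the closest relative of GRF7 by its miR396 site, was low in every genotype. It lies at chr4:12535972-12539576 on the plus strand and stood at 2.14 RPKM in Col-0 and 0.0302 in hls1, beside 0.584 in pifq, 0.937 in ein3 eil1 and 0.556 in the combined mutant. As for GRF7, Col-0 was highest and hls1 lowest, but at levels where a mean of 2 samples rests on few reads. Its log2 differences from Col-0 were -1.61 in hls1, -0.99 for pifq, -0.70 for ein3 eil1 and -1.01 for the combined mutant. The last was just past the threshold and the difference in pifq just under it, and after scaling they were -0.91 and -0.93. Against pifq, GRF8 in pifq ein3 eil1 differed by -0.03, or 0.02 after scaling, and against ein3 eil1 by -0.32. The longest run of identical bases in the GRF7 and GRF8 transcripts was 27 nt, against reads of 150 nt. The ratio of GRF7 to GRF8 was 50.4 in Col-0 and 27.3 in hls1, beside 22.1 in pifq, 38.1 in ein3 eil1 and 4.99 in the combined mutant.

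**Figure D2:**
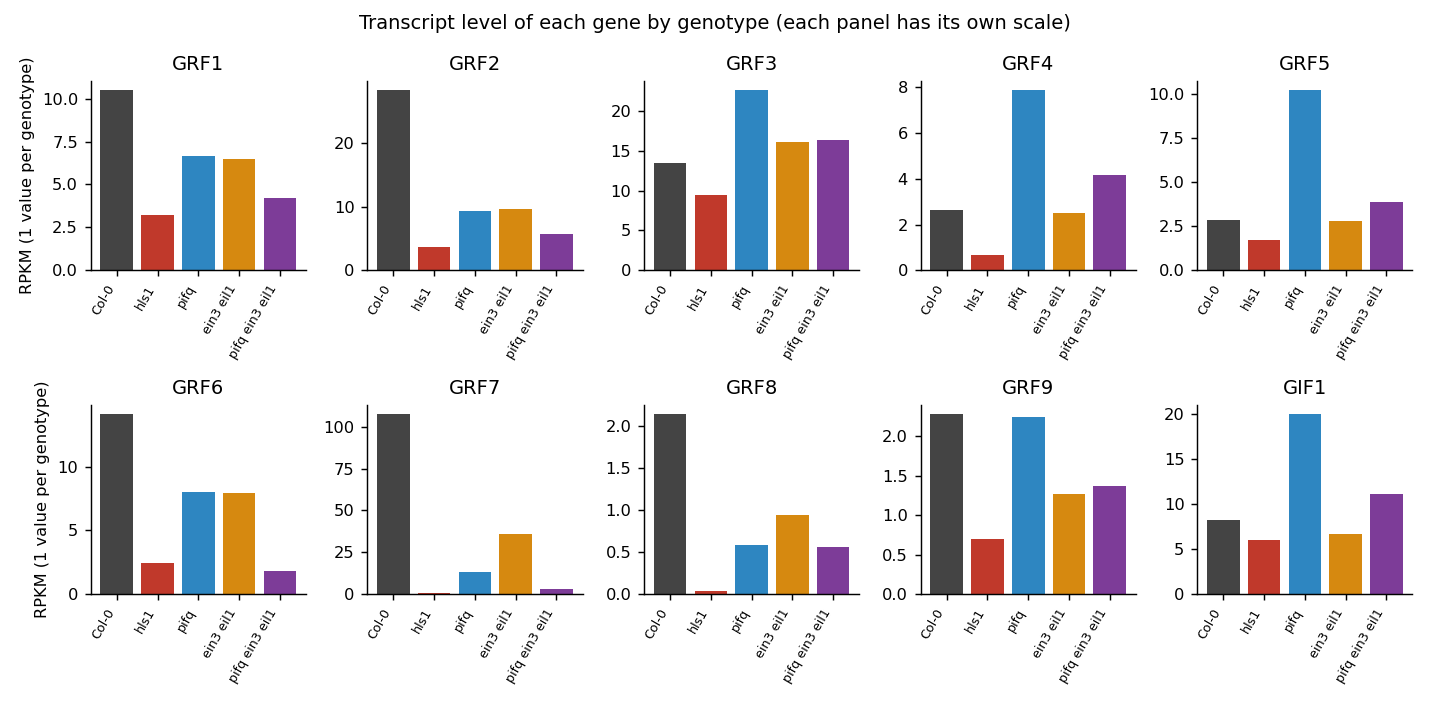
RPKM of each of the 10 genes (bars, 1 deposited value per genotype, no replicate error available), each panel with its own axis starting at 0. GRF1, GRF2, GRF6, GRF7, GRF8 and GRF9 are highest in Col-0, the last nearly level with pifq, and GRF3, GRF4, GRF5 and GIF1 are highest in pifq.

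GRF1 and GRF2 are a pair of close relatives that enlarge leaves and cotyledons. GRF2, at chr4:17725337-17727909 on the minus strand, stood at 28.4 RPKM in Col-0 and 3.67 in hls1, beside 9.27 in pifq, 9.63 in ein3 eil1 and 5.64 in the combined mutant. Col-0 stood alone, pifq and ein3 eil1 were nearly level, and hls1 was lowest. Its log2 differences from Col-0 were -2.65 in hls1, -1.52 for pifq, -1.47 for ein3 eil1 and -2.15 for the combined mutant, and scaling left each past the threshold, at -1.16 in ein3 eil1. The combined mutant differed from pifq by -0.63 and from ein3 eil1 by -0.68, both under the threshold, and the interaction was 0.84. The combined mutant was therefore higher than the sum of both log2 differences would place it, by less than the threshold. The gene next to GRF2, ANT, which also promotes organ growth, stood between 3.61 and 6.42 RPKM and passed no threshold.

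GRF1, at chr2:9728480-9731301 on the plus strand, stood at 10.5 RPKM in Col-0 and 3.21 in hls1, beside 6.64 in pifq, 6.51 in ein3 eil1 and 4.20 in the combined mutant. Its genotypes were in nearly the same order as those of GRF2, with smaller distances. The log2 differences from Col-0 were -1.45 in hls1, -0.59 for pifq, -0.61 for ein3 eil1 and -1.15 for the combined mutant. After scaling the last was -0.98, under the threshold. Against pifq and ein3 eil1 the combined mutant differed by -0.56 and -0.53, and the interaction of 0.06, or -0.13 after scaling, was small. GRF2 stood 2.70 times above GRF1 in Col-0 and 1.14 times in hls1, so their levels were closer where both were low. Their transcripts shared a run of at most 30 nt. GRF1 overlaps bZIP6, which stood between 0.935 and 3.03 RPKM.

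GRF5 and GRF6, the pair without a miR396 site, went different ways. GRF5, which raises cell number in leaves, lies at chr3:4608076-4610497 on the plus strand and stood at 2.83 RPKM in Col-0 and 1.69 in hls1, beside 10.2 in pifq, 2.76 in ein3 eil1 and 3.85 in the combined mutant. The pifq mutant stood apart from all others. It differed from Col-0 by 1.55 on the log2 scale, past the threshold, against -0.51 in hls1, -0.03 in ein3 eil1 and 0.34 in the combined mutant. In ein3 eil1 the sign turned with scaling, to 0.22. The combined mutant was lower than pifq by -1.21, past the threshold, and differed from ein3 eil1 by 0.37. The interaction of -1.18 was past the threshold for GRF5: the higher level in pifq was mostly absent where EIN3 and EIL1 were also missing.

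GRF6, at chr2:2426176-2427355 on the plus strand, stood at 14.2 RPKM in Col-0 and 2.46 in hls1, beside 7.99 in pifq, 7.97 in ein3 eil1 and 1.82 in the combined mutant. Here pifq and ein3 eil1 were level and the combined mutant was the lowest, below hls1. Its log2 differences from Col-0 were -2.13 in hls1, -0.75 for pifq, -0.76 for ein3 eil1 and -2.42 for the combined mutant. The combined mutant was below pifq and below ein3 eil1 by -1.67 each, past the threshold. The interaction was -0.91, under the threshold, and -1.12 and past it after scaling. GRF6 stood 5.01 times above GRF5 in Col-0, whereas GRF5 stood 1.28 times above GRF6 in pifq and 2.11 times in pifq ein3 eil1. Together the pair came to 17.0 RPKM in Col-0 and 4.15 in hls1, beside 18.2 in pifq, 10.7 in ein3 eil1 and 5.67 in the combined mutant. The 7 GRFs with a site summed to 167.2, 18.5, 62.2, 72.6 and 35.0 RPKM in the same order. Both sums were lowest in hls1, and that of the pair without a site was highest in pifq. GRF6 was the larger part of the pair in Col-0, hls1 and ein3 eil1, and GRF5 in pifq and the combined mutant.

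GRF3 and GRF4, which act with GRF1 and GRF2 in cotyledon and leaf growth, were highest in pifq. GRF3, at chr2:15270088-15273115 on the minus strand, stood at 13.4 RPKM in Col-0 and 9.43 in hls1, beside 22.6 in pifq, 16.1 in ein3 eil1 and 16.3 in the combined mutant. Its highest value was 2.40 times its lowest, the narrowest ratio in the family, and none of its comparisons passed the threshold. The log2 differences from Col-0 were -0.47 in hls1, 0.71 for pifq, 0.25 for ein3 eil1 and 0.26 for the combined mutant. Those of the combined mutant from pifq and ein3 eil1 were -0.45 and 0.02, the last -0.12 after scaling, and the interaction was -0.70. GRF3 overlaps SBE2.1, a starch branching enzyme gene that stood between 11.5 and 15.3 RPKM, and AT2G08795.

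GRF4, at chr3:19615977-19618507 on the minus strand, stood at 2.63 RPKM in Col-0 and 0.677 in hls1, beside 7.88 in pifq, 2.49 in ein3 eil1 and 4.15 in the combined mutant. It was lowest in hls1 and highest in pifq, with an RPKM ratio of 11.7 between them. The log2 differences from Col-0 were -1.11 in hls1, 1.29 for pifq, -0.06 for ein3 eil1 and 0.51 for the combined mutant, and the sign in ein3 eil1 turned to 0.19 with scaling. The combined mutant differed from pifq by -0.79 and from ein3 eil1 by 0.56, with an interaction of -0.73. GRF3 stood 5.11 times above GRF4 in Col-0, 13.9 times in hls1 and 2.87 times in pifq.

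GRF9, which is known to limit leaf growth, lies at chr2:18745249-18747634 on the plus strand and stood at 2.29 RPKM in Col-0 and 0.692 in hls1, beside 2.25 in pifq, 1.27 in ein3 eil1 and 1.37 in the combined mutant. Col-0 and pifq were level and hls1 was lowest. Its log2 difference in hls1, -0.96, was the one nearest to the threshold among those under it in that mutant, beside GRF4 just past it at -1.11, and the others were -0.02 in pifq (0.02 after scaling), -0.54 in ein3 eil1 and -0.47 in the combined mutant. The combined mutant differed from pifq by -0.45 and from ein3 eil1 by 0.06, or -0.02 after scaling. GRF9 overlaps AUR3, an Aurora kinase gene of dividing cells, which stood at 2.40 RPKM in Col-0 and 1.08 in hls1, beside 3.87 in pifq, 1.30 in ein3 eil1 and 2.32 in the combined mutant. The part of AUR3 reads in the GRF9 values was not tested.

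GIF1, at chr5:10647467-10650066 on the minus strand, stood at 8.27 RPKM in Col-0 and 6.05 in hls1, beside 20.1 in pifq, 6.67 in ein3 eil1 and 11.1 in the combined mutant. The coactivator was thus highest in pifq, as GRF3, GRF4 and GRF5 were, while GRF7 and GRF2 were lower there. On the log2 scale it differed from Col-0 by 1.18 in pifq, past the threshold, and by -0.40 in hls1, -0.27 in ein3 eil1 (0.02 after scaling) and 0.39 in pifq ein3 eil1. The combined mutant differed from pifq by -0.79 and from ein3 eil1 by 0.66, with an interaction of -0.52. Its relatives GIF2 and GIF3 passed no threshold, though GIF3 in hls1 was just under it, at -0.98. GIF2 stood at 16.4 RPKM in Col-0 and 20.4 in hls1, beside 17.5 in pifq, 8.70 in ein3 eil1 and 15.5 in the combined mutant. GIF3 stood at 1.43, 0.232, 1.49, 1.71 and 1.87 RPKM in the same order.

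Counted across the 10 genes, none was higher and 6 were lower than Col-0 in hls1, GRF1, GRF2, GRF4, GRF6, GRF7 and GRF8. Over all 18581 genes, 3.4% were higher and 4.0% lower in that comparison, from which the family was chosen. When differences of any size are counted, all 10 lay below Col-0 in hls1, also after median-of-ratios scaling. Of the settings tried, only scaling could turn these signs. Of the 10 genes, 9 had their lowest level in hls1. The median of all genes in that comparison was 0.04. Matching shares of all genes were not computed, and nothing is read from these counts either. In pifq, 3 genes were higher, GRF4, GRF5 and GIF1, against 3.39% of all genes, and 2 were lower, GRF2 and GRF7, against 6.22%. In ein3 eil1, none was higher, against 1.63% of all genes, and GRF2 and GRF7 were the 2 lower, against 2.51%. In pifq ein3 eil1, none was higher, against 3.81%, and 5 were lower, GRF1, GRF2, GRF6, GRF7 and GRF8, against 6.04%. With scaling the 5 became 3.

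Between the combined mutant and pifq, none of the 10 genes was higher, against 1.76% of all genes, and 3 were lower, GRF5, GRF6 and GRF7, against 1.12%. Between the combined mutant and ein3 eil1, none was higher, against 4.04%, and 2 were lower, GRF6 and GRF7, against 3.99%. In the interaction, none was above the threshold, against 3.35% of all genes, and GRF5 alone was below it, against 1.5%. The median log2 difference of the 10 genes was -1.28 in hls1, -0.30 for pifq, -0.57 for ein3 eil1 and -0.74 for the combined mutant, beside the medians of all genes given above. Against pifq the median of the combined mutant was -0.71 for the 10 genes and -0.11 for all genes, and against ein3 eil1 it was -0.15 and 0.13. For the interaction it was -0.42 and 0.18. The shares of higher among all called genes moved with scaling, from 39.4% to 68.0% in ein3 eil1, from 38.7% to 51.6% in pifq ein3 eil1, from 61.0% to 71.8% for the combined mutant against pifq, from 50.3% to 38.5% against ein3 eil1 and from 69.0% to 53.0% for the interaction.

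**Figure D3:**
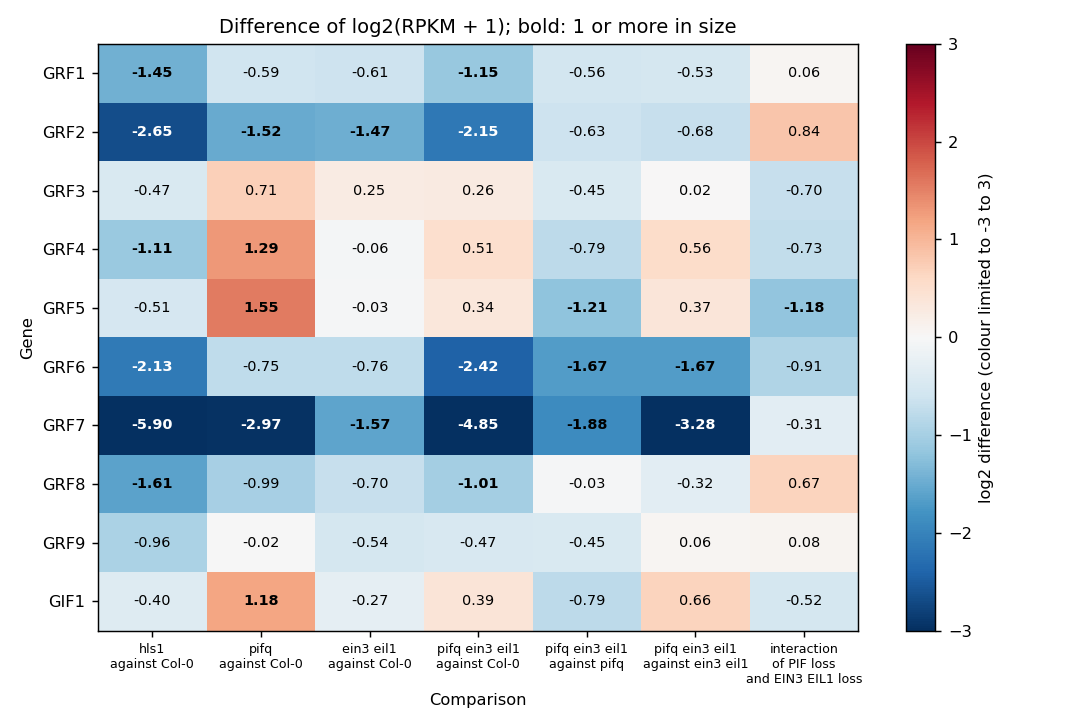
Log2(RPKM + 1) differences of the 10 genes (rows) in 7 comparisons (columns), coloured from lower (blue) to higher (red), with differences of 1 or more in size in bold. All values in the hls1 column lie below 0, while the pifq column runs from -2.97 for GRF7 to 1.55 for GRF5; values near 0 in the ein3 eil1 column (GRF4, GRF5, GIF1) change sign with scaling, as do GRF9 in pifq, GRF8 against pifq, GRF3 and GRF9 against ein3 eil1, and GRF1 and GRF9 in the interaction.

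**Figure D4:**
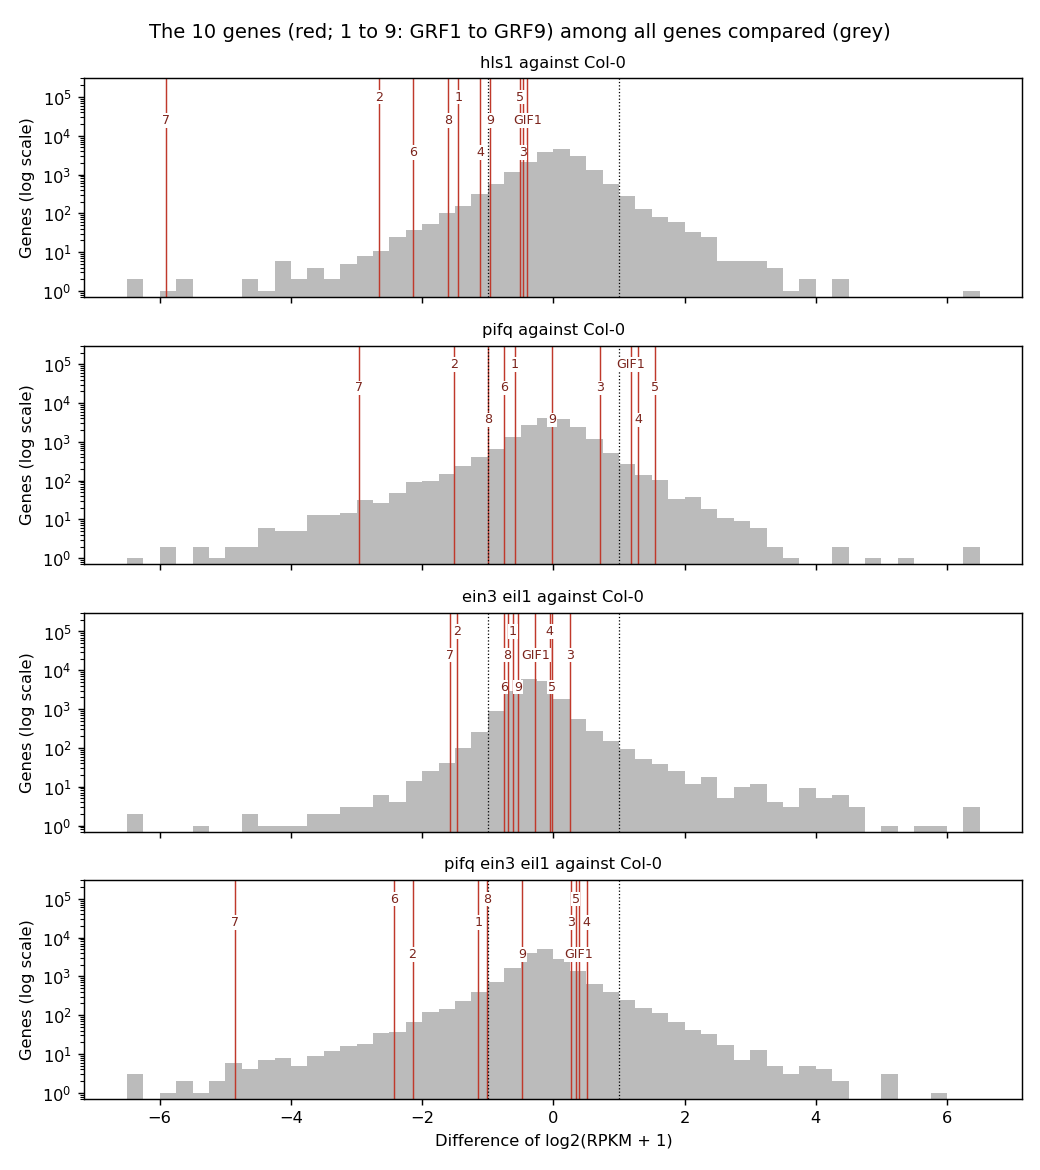
Histograms of the log2(RPKM + 1) difference of all 18581 genes from Col-0 (grey, number of genes on a log axis) with the 10 genes as red lines (1 to 9 for GRF1 to GRF9) and the threshold as dotted lines. GRF7 lies in the far lower tail in hls1 (-5.90) and pifq ein3 eil1 (-4.85), and in pifq the family spreads to both sides.

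The 250 bases before the annotated start of transcription were read for motifs in each of the 10 genes and in 26694 genes of the genome, on both strands. The G-box CACGTG and the PBE-box CACATG, both bound by PIFs, were each found in 1 of the 10 genes, against 6.58% and 11.2% of all windows. That gene was GRF1, whose motifs begin at positions -127 and -116 from the start. The letters TACAT, found in sites bound by EIN3, were in 7 of the 10 windows and in 52.2% of all windows. The letters TGTCAG, part of the element that GRF7 binds at DREB2A, were in 1, GRF8, and in 5.28% of all windows. None of the 4 was in the windows of GRF3 and GRF7. The windows of GRF1, with its G-box and PBE-box in capitals, and of GRF7 are shown because GRF1 was the gene with both PIF motifs and GRF7 had the widest range of levels, in TAIR10.1 at chr2:9728230-9728479 and chr5:21793927-21794176, both on the plus strand.
GRF1 upstream: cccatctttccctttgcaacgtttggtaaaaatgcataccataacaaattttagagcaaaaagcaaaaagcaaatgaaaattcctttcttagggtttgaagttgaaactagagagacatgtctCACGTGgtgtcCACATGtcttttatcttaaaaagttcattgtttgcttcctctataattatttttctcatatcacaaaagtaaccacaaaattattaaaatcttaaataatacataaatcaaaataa
GRF7 upstream: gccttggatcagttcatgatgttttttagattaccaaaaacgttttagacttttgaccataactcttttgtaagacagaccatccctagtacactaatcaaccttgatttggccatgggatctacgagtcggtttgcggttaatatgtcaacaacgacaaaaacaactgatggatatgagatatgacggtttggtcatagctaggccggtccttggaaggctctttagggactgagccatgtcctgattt
These windows are short, and a match or its lack says nothing about binding.

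Genes whose levels over the 5 genotypes were most like those of GRF7 and GRF2, the genes with the widest log2 ranges, were sought among 5364 genes with a symbol and at least 10 RPKM in some genotype. Likeness was the Euclidean distance between log2(RPKM + 1) profiles after centring. Nearest to GRF7 was PORA, a protochlorophyllide oxidoreductase of dark-grown seedlings, at a distance of 1.20, with 2089 RPKM in Col-0 and 44.5 in hls1, beside 403 in pifq, 1411 in ein3 eil1 and 213 in the combined mutant. CEL2, a cellulase gene, followed at 1.22, with 53.6, 1.38, 5.26, 20.7 and 1.81 RPKM in the same order, and then came DAA1 (1.74), KIN1 (2.18) and DYL1 (2.46). Nearest to GRF2 was CIA2, a regulator of chloroplast protein import genes, at 0.39, with 72.0 RPKM in Col-0 and 13.5 in hls1, beside 28.7 in pifq, 36.9 in ein3 eil1 and 20.3 in the combined mutant. It was followed by OZF2 (0.57), the auxin response factor gene ARF18 (0.59), ABCG15 (0.69) and IAA20 (0.69). With 5 points per profile this is a description of likeness and no more.

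Transcription around the family was read from the genes on either side. Of 40 listed neighbours, 25 reached 1 RPKM. In hls1, 1 was higher, AT4G24130 near GRF8, and none was lower. In pifq, 4 were lower, PSK2, SQE3, AT2G36410 and AT4G24160, in ein3 eil1 none passed, and in the combined mutant 3 were lower, PSK2, AT2G36410 and AT3G13965. After scaling SQE3 (-0.95) and AT4G24160 (-0.998) in pifq and AT3G13965 (-0.90) in the combined mutant were under the threshold. Over all genes, 6.22% were lower in pifq and 6.04% in the combined mutant. Of the neighbours of GRF7, only AT5G53650 reached 1 RPKM and was compared, and it passed no threshold.

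The other genes of the pathway were taken from fixed lists. The miR396 loci MIR396A and MIR396B are listed at 0 in all genotypes, in libraries of polyadenylated RNA, which do not measure mature microRNAs. The 5 TCP factors TCP2, TCP3, TCP4, TCP10 and TCP24, of which TCP4 activates miR396 loci, passed no threshold in any comparison. TCP24 stood between 14.5 and 27.5 RPKM and TCP3 between 16.0 and 27.4. BHLH74, a miR396 target outside the family, stood at 29.6 RPKM in Col-0 and 19.7 in hls1, beside 19.5 in pifq, 14.7 in ein3 eil1 and 13.6 in the combined mutant and passed the threshold in the last, at -1.06, but not after scaling, at -0.88. Of the SWI/SNF subunits that GIF1 recruits, 12 of 12 were measured and none passed in any comparison, with medians of -0.03 in hls1 and 0.08 in pifq. Their most abundant genes were ARP4, between 17.3 and 31.3 RPKM, and SWP73B, between 17.2 and 23.4. Of all genes, 3.4% were higher and 4.0% lower in hls1, and 3.39% and 6.22% in pifq. At such shares nothing is read from the lack of calls among these 12 genes or the 5 TCP factors.

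Among 7 genes reported as targets of GIF1 or GRFs, 2 were lower in hls1 and none higher. HEC1, a bHLH factor, stood at 54.8 RPKM in Col-0 and 19.6 in hls1, and KNAT1, a homeobox gene of the meristem, at 26.4 and 12.2. In pifq, 1 was lower, DREB2A, at 0.933 RPKM against 3.57 in Col-0. DREB2A, which GRF7 is known to repress, stood at 2.90 RPKM in hls1, 6.33 in ein3 eil1 and 1.55 in the combined mutant, and was lower in the last than in ein3 eil1 past the threshold. In ein3 eil1 none passed, and in pifq ein3 eil1, 1 was higher, ARR4, a cytokinin response regulator, at 88.8 RPKM against 36.7 in Col-0. Against pifq none passed.

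Of 7 dehydration response genes, 6 were compared. In hls1, 2 were lower, RD29A at 7.46 RPKM against 30.2 in Col-0 and RD29B at 0.325 against 3.02. In pifq, 4 were lower, DREB2A, RD29A at 2.78, RD29B at 0.465 and LEA14 at 44.9 against 117 RPKM, and 1 was higher, RAB18, at 2.81 against 0.485. In ein3 eil1, 1 was higher, RAB18 at 10.7 RPKM, and none lower, while RD29A, at 57.7 RPKM, differed from Col-0 by 0.91, and after scaling by 1.24, which is past the threshold. LEA14 in hls1, at 59.7 RPKM, was at -0.96, and after scaling just past the threshold, at -1.004. In pifq ein3 eil1, RD29A at 10.4 and RD29B at 0.380 RPKM were the 2 lower. Against pifq, RD29A was the 1 higher in the combined mutant, and against ein3 eil1, where GRF7 was also lower, 5 were lower there (DREB2A, RD29A, RD29B, LEA14 and RAB18) and 1 higher (HSFA3). HSFA3 was under the threshold after scaling, at 0.90. The median of the list was -0.80 in hls1, -1.30 for pifq, 0.61 for ein3 eil1 and -0.79 for the combined mutant, and GRF7 was below Col-0 in each. Whether GRF7 bears on these levels was not tested.

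**Figure D5:**
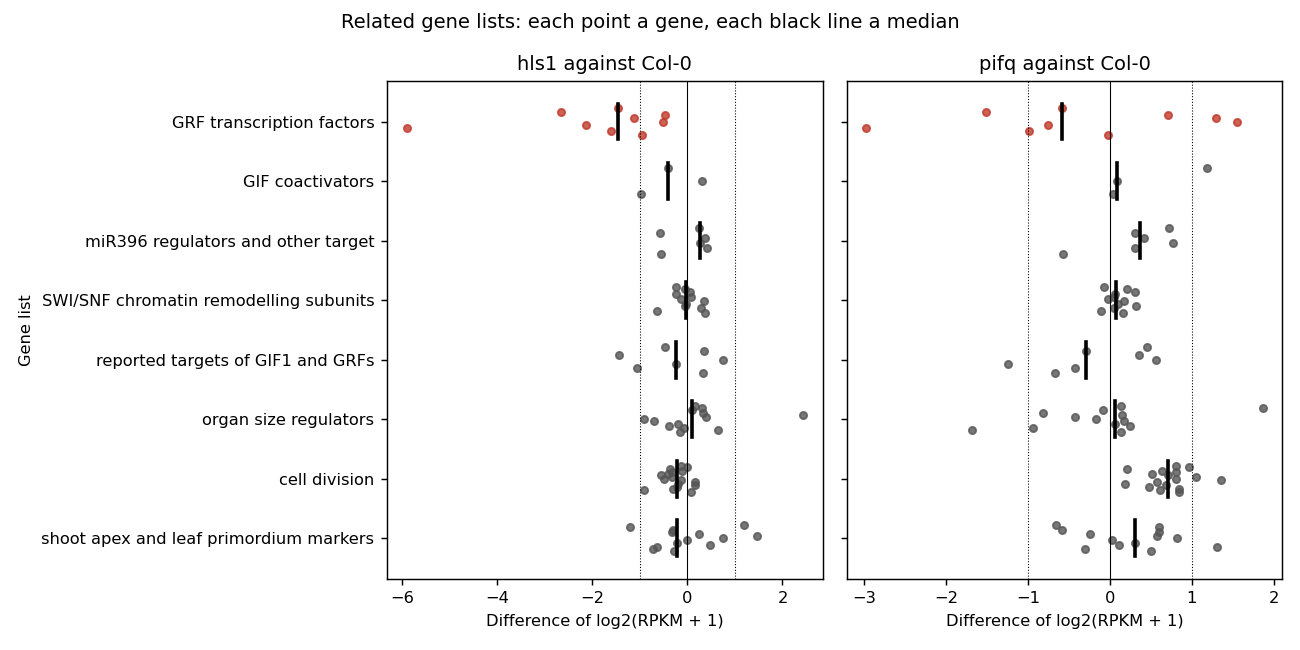
Log2(RPKM + 1) differences from Col-0 of the genes in 8 lists (points, 1 per gene; black lines are list medians; dotted lines the threshold), in hls1 on the left and pifq on the right, each panel with its own axis. The GRF median is -1.45 in hls1 and -0.59 in pifq, and the cell division genes lie mostly below 0 in hls1 (median -0.23) and all above 0 in pifq (median 0.70).

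Genes of cell division, which the family promotes, were compared beside it. Of 17, none was called in hls1, with a median of -0.23, and 2 were higher in pifq, with a median of 0.70, KNOLLE, a syntaxin of the cell plate, at 48.5 RPKM against 22.9 in Col-0, and AUR2, an Aurora kinase, at 9.10 against 2.94. CYCB1;2 at 0.97 was under the threshold and at 1.02 past it after scaling. None passed in ein3 eil1 (median -0.09) or pifq ein3 eil1 (median 0.43). Their RPKM summed to 209.4 in Col-0 and 160.5 in hls1, beside 349.3 in pifq, 173.3 in ein3 eil1 and 264.5 in the combined mutant. GIF1, GRF3, GRF4 and GRF5 had their highest and lowest values in the same genotypes as this sum, pifq and hls1. The part of dividing cells in their levels was not tested.

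Among 13 of 15 organ size regulators compared, KLU, a cytochrome P450 that prolongs organ growth, was the 1 higher gene in hls1, at 86.4 RPKM against 15.2 in Col-0, and none was lower. In pifq, AIL5, a gene related to ANT, was higher at 11.8 against 2.53 RPKM, and ROT3, a brassinosteroid enzyme gene, lower at 4.78 against 17.6. In ein3 eil1, ARGOS, a gene that promotes organ growth, was lower at 25.3 against 62.6 RPKM, a difference of -1.27 that was -0.95 and under the threshold after scaling. In pifq ein3 eil1 ARGOS, at 15.7, and ROT3, at 5.30, were lower.

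Tissue markers were read in the same way. Of 16 markers of the shoot apex and leaf primordia, where GRFs are most active, between 10 and 12 reached 1 RPKM in each genotype, and their sum was 283.6 RPKM in Col-0 and 278.7 in hls1, beside 309.0 in pifq, 222.1 in ein3 eil1 and 280.4 in the combined mutant. The stem cell gene WUS was listed at 0 in hls1, pifq and ein3 eil1. In hls1, STM at 14.4 RPKM against 5.73 in Col-0 and CUC3 at 2.79 against 0.372 were higher and CLV1 at 4.78 against 12.4 was lower. In pifq, SPCH was higher, at 17.2 against 6.35 RPKM, in ein3 eil1 none passed, and in pifq ein3 eil1 FIL was higher, at 81.4 against 38.0. The members of this list thus went both ways, and AS1, at 126 RPKM in Col-0 and 101.3 in hls1, made up much of the sum. Their part in the GRF levels was not tested.

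Of 11 root markers, 8 were compared although roots were not collected. Between 6 and 8 reached 1 RPKM in each genotype, and all 11 summed to 3454 RPKM in Col-0 and 2007 in hls1, beside 4243 in pifq, 2624 in ein3 eil1 and 3713 in the combined mutant, most of it PYK10. Without PYK10 they summed to 127.8 RPKM in Col-0 and 131.3 in hls1, beside 24.2 in pifq, 164.6 in ein3 eil1 and 47.0 in the combined mutant. NRT2.1 was listed at 0 in hls1 and ein3 eil1. In hls1, PRP3 was the 1 higher and THAS1 the 1 lower, and in pifq none was higher and 4 were lower, TIP2;3, CASP1, THAS1 and MRN1. In ein3 eil1, 3 were higher, PRP3, THAS1 and MRN1, and none lower, with PHT1;1 added after scaling, from 0.88 to 1.17, and in the combined mutant PRP3 and MRN1 were the 2 higher and TIP2;3 and CASP1 the 2 lower. The part of these markers in the GRF levels was not tested.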

How the data were processed

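RNA-seq was run on polyadenylated RNA from 10 samples, 2 per genotype, per the labels. Per the submitters' processing notes, BWA 0.7.7 and the TAIR10 build were used; how reads were counted, with or without strand, and over which gene lengths is not stated by them. The authors deposited RPKM values, 1 for each gene in each genotype. Of those above 0, 51.0% to 51.8% carry 7 or more digits, and 95.2% to 96.0% of such values end in 5, the pattern of a mean of 2 numbers. limma and other tests planned for values per sample could not be run, so differences of log2(RPKM + 1) are described on the whole table, with a pseudocount of 1, a minimum of 1 RPKM in at least 1 genotype and a threshold of 1. The calling step was run on simulated data, made from the Col-0 values with a set noise and planted changes. As the real spread between samples is unknown, that run says nothing about how reliable the differences here are. Depth is unknown and no interval was computed. No batch is given in the labels.

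The 10 genes and the 11 other lists were chosen with earlier results of these data known. Genes outside the family were named by a rule: up to 4 past the threshold per list and comparison, or the 2 most abundant where none passed, the 5 most like GRF7 and GRF2, 2 neighbours on each side and the mutated genes. Where a list held few members, further ones were named after their values were seen. Alternatives were pseudocounts of 0.1 and 0.5, no minimum, a minimum of 5 RPKM and median-of-ratios scaling. Sequences came from TAIR10.1 with RefSeq's annotation. Python 3.11.15, pandas 2.3.3, numpy 2.4.6 and matplotlib 3.10.9 were used.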

Additional observations from a re-analysis of the deposited data

How the results depend on the processing

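No paired analysis was possible because the deposited table gives 1 value per genotype, and for the same reason no replicate was left out. Of 336 values of single genes listed under the alternatives, 325 kept their side of the threshold, 9 moved past it and 2 moved under it. None past the threshold changed direction. The 70 values without a minimum and the 56 with a minimum of 5 RPKM could not move, because a minimum changes no value. Among the rest, 65 kept their side with a pseudocount of 0.1, 67 with 0.5 and 67 after scaling. A pseudocount cannot turn the direction of a difference between 2 genotypes either. The number of the 10 genes past the threshold in the interaction was 1 as reported, 3 with a pseudocount of 0.1, 2 with 0.5 and 2 after median-of-ratios scaling; GRF6 was added in each of these, at -1.25, -1.08 and -1.12, and GRF8 with 0.1, at 1.05. In pifq ein3 eil1 against Col-0 the 5 genes became 3 after scaling, as GRF1 and GRF8 moved under the threshold. GRF9 in hls1 passed it with pseudocounts of 0.1 (-1.59) and 0.5 (-1.23), GRF8 in pifq too (-1.71 and -1.29), and GRF8 in ein3 eil1 with 0.1 (-1.11). A minimum of 5 RPKM leaves out GRF8 and GRF9. Genes near 1 RPKM therefore depend on the pseudocount most, by its construction.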
